A study of Mus musculus with 2 samples.

Results

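Enriched Hi-C contacts were described at 46 mouse genes that encode chromatin remodellers and enzymes or readers of histone modifications. The genes were given as a list, and a contact was counted for a member where an anchor of a called pixel lay within 10 kb of either annotated end of the gene on GRCm38 (mm10). All 46 were found among the 21883 protein-coding genes of the RefSeq annotation on chromosomes 1 to 19, X and Y. Of these members 22 had at least 1 pixel and 24 had none. Hi-C fixes nuclei, cuts the DNA and ligates ends that lie near each other in space, so that sequenced pairs count contacts between genomic positions. Hair matrix keratinocytes, the proliferating cells of the follicle bulb that produce the hair shaft and its inner sheath, were taken from mice at postnatal day 4.5. A double knockout of Tet2 and Tet3 made with Krt14-Cre (DKO) was set against wild type (WT), with 1 library per genotype. Krt14-Cre is active in epithelial cells that use the Krt14 promoter, so other cells of the skin keep both genes. The labels do not say whether WT mice carried the Cre or floxed alleles, nor whether animals were pooled. Contact lists hold no transcript levels, so neither the cell type nor the loss of Tet2 and Tet3 could be checked with marker genes.

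Nucleosome remodellers use ATP to slide or evict nucleosomes, while methyltransferases, demethylases, acetyltransferases and deacetylases set or remove marks on histone tails. Polycomb complexes place repressive marks and compact chromatin over developmental genes, and in skin they restrain differentiation genes in progenitors. TET2 and TET3 oxidise methylated cytosine, which is found mostly in CG dinucleotides, and promoters of genes used in every tissue are often rich in them. Where an enhancer, another promoter or an insulator site lies close to a promoter in space, Hi-C can show it as a focal contact, although a contact measures proximity and not activity.

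The DKO list held 4872 pixels and the WT list 5811, a pixel being a pair of bins of 5 kb on 1 chromosome, called by the authors against 4 surrounding neighbourhoods. Median observed counts were 18 contacts in both lists. Enrichment below is the observed count divided by the expected count of the donut neighbourhood, with an exact 95% Poisson interval that covers counting error only and takes the expected count as fixed. With 1 library per genotype there is no replicate error, no test and no p-value, and a difference between lists compares these libraries. A pixel missing from a list was not called there, which does not show that the contact was absent.

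In the DKO list 15 of 46 members (32.6%) had a pixel, where 20.1% of all protein-coding genes did. In the WT list 16 members (34.8%) had one, against 21.2% of all genes. Both lists held pixels at 9 members (19.6%, all genes 12.9%). The DKO list alone held pixels at 6 members (13.0%, all genes 7.14%), and the WT list alone at 7 (15.2%, all genes 8.23%). At least 1 list named 47.8% of members (exact Clopper-Pearson interval 32.9 to 63.1%) and 28.3% of all genes. With gene ends within 5 kb of the anchor bin the shares were 26.1% of members and 15.9% of all genes in DKO, and 19.6% of members and 16.3% of all genes in WT. With gene ends inside the bin they were 10.9% of members and 8.99% of all genes in DKO, and 15.2% of members and 9.44% of all genes in WT. Members in either list lay among more genes than those in neither. A median of 12.5 other protein-coding gene ends lay within 100 kb of the 22 members with a pixel, and 7 within 100 kb of the 24 without. Over all genes these medians were 9 at genes with a pixel and 7 at genes without. The part of gene density in the shares was not tested.

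**Figure D1:**
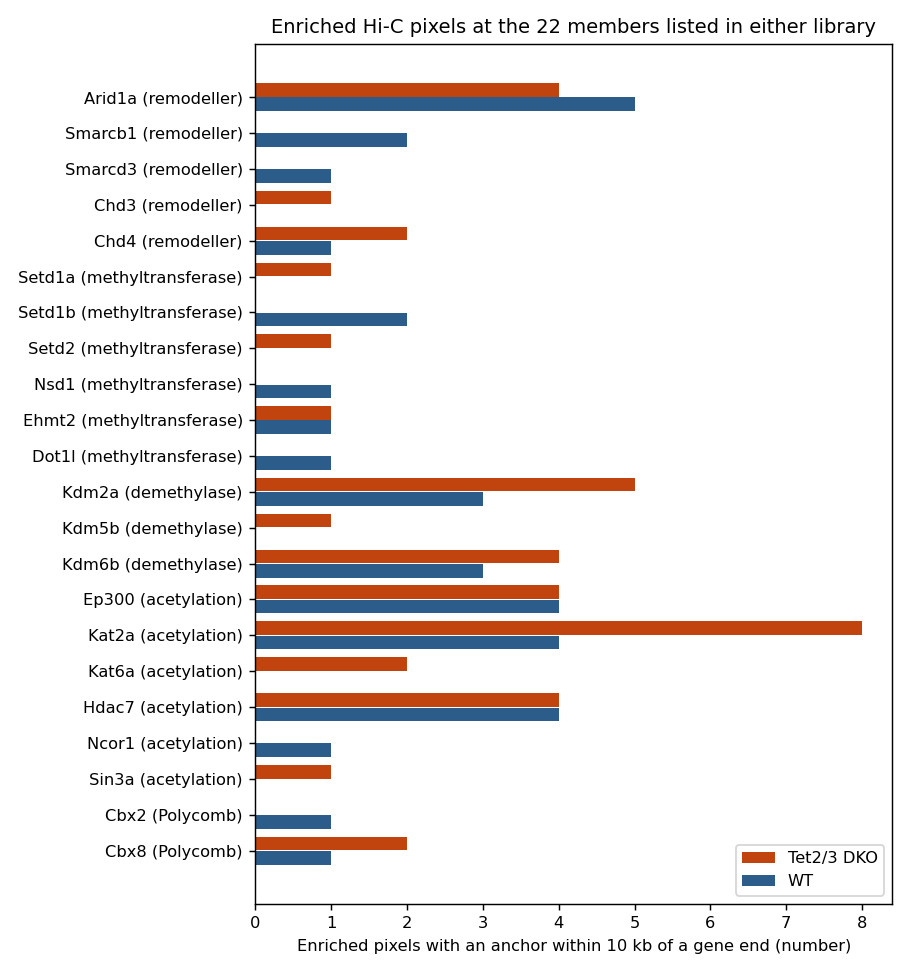
Number of enriched pixels with an anchor within 10 kb of a gene end (horizontal axis) for each of the 22 members with a pixel, with the DKO list above the WT list and the class of each member in brackets. Kat2a had the most, 8 in DKO and 4 in WT, and bars stand in both lists for 9 members.

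Promoter sequences of RefSeq (GRCm38.p6, 250 bases before to 50 after a start) were matched for 36 members, 15 of them with a pixel, by gene symbol. No sequence was used for Chd3, Chd7, Setd1b, Nsd1, Kdm2a, Kdm6b, Kat6a, Hdac1, Hdac3 and Cbx2. The promoters below are those whose start lay inside an anchor bin of a pixel of that gene (Ep300 in both lists, Cbx8, Ncor1 and Smarcd3 in the WT list) and those of Kat2a and Arid1a, which had the most pixels. Capitals mark CG dinucleotides, the main sites of cytosine methylation.
Ep300, chr15:81585964-81586263, plus strand: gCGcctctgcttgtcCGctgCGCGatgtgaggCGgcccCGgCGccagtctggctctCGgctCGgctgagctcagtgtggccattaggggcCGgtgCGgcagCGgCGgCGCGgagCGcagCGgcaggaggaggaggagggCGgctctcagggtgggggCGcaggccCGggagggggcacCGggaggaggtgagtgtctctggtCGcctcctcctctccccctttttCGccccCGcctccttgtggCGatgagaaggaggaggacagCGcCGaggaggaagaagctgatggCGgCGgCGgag
Cbx8, chr11:119040864-119041163, minus strand: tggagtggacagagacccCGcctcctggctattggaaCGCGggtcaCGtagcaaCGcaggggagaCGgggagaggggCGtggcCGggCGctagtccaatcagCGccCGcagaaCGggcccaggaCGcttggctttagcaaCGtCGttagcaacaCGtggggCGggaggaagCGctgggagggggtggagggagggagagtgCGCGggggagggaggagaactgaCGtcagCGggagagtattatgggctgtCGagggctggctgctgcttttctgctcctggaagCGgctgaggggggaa
Ncor1, chr11:62457283-62457582, minus strand: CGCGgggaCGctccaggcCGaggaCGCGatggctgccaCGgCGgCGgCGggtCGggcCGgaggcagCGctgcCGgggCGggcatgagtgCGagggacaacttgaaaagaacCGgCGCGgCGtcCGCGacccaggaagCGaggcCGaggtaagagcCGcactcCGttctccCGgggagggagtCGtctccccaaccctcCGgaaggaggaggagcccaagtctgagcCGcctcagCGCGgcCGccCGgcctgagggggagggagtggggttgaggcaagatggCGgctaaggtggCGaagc
Smarcd3, chr5:24601953-24602252, minus strand: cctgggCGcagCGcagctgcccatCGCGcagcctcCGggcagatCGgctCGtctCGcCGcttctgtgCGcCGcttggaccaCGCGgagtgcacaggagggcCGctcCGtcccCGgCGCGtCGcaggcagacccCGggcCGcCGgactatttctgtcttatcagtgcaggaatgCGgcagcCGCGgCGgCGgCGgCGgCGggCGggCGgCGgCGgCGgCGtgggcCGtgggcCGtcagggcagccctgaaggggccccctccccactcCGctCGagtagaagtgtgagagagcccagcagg
Kat2a, chr11:100712418-100712717, minus strand: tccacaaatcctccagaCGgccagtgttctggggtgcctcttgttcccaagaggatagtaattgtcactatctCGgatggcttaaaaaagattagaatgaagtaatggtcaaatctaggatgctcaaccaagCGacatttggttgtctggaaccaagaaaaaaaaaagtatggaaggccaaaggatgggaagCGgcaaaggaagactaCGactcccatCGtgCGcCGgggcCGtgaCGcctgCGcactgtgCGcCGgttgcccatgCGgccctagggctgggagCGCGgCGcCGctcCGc
Arid1a, chr4:133756720-133757019, minus strand: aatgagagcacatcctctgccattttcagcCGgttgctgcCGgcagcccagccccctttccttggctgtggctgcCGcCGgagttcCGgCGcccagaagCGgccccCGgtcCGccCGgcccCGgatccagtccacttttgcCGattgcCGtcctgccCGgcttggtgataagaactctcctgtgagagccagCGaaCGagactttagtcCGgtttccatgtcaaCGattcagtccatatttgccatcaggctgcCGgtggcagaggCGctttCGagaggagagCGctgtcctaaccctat

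These windows held 30 CG dinucleotides at Ep300, 24 at Cbx8, 36 at Ncor1, 40 at Smarcd3, 19 at Kat2a and 22 at Arid1a. The 15 members with a pixel had a median of 27 CG dinucleotides (6 at Hdac7 to 49 at Dot1l), and the 21 members without a pixel a median of 32. Over all 17491 genes with a promoter the median was 13, and over the 4859 of them with a pixel it was 19. The members were thus rich in CG dinucleotides with or without a pixel. A CTCF-like core pattern was searched on both strands and was found in 3 of the 15 promoters of members with a pixel (Ep300, Kat2a and Setd2) and in 0 of the 21 without, where 9.87% of all promoters and 13.6% of those of genes with a pixel held it. Ep300 held it as CCGGGAGGGGGC from base −86 to −75, counted from the start as base 0, and once more on the other strand. A YY1-like pattern, AANATGGCG, lay at Dot1l and Ncor1 and, among members without a pixel, at Kmt2a, with 3.28% of all promoters and 4.14% of those of genes with a pixel holding it. Such matches describe letters and not bound sites, and these CTCF-like and YY1-like matches overlapped no match of the other patterns. An SP1-like pattern, GGGCGGG, lay in 60% of promoters of members with a pixel, 47.6% of those without, 45.5% of promoters of all genes with a pixel and 34% of all. An ETS-like pattern, CCGGAAGT, was in no member promoter (5.28% of all), and an NRF1-like pattern was at Brd2 alone among members (1.33% of all).

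Among the 11 remodellers, Arid1a and Chd4 had pixels in both lists, Chd3 in the DKO list alone, and Smarcb1 and Smarcd3 in the WT list alone. Arid1a encodes a large DNA-binding subunit of the BAF (SWI/SNF) complex and lies on chromosome 4 (133679008 to 133756769). It had 4 DKO pixels with 17 to 21 contacts, and 5 WT pixels with 17 to 31 contacts. A pair of bins joining the neighbourhoods of its own start and end over 80 kb was listed in both libraries, with 17 contacts at 3.40 times expected in DKO (1.98 to 5.44) and 20 at 3.82 times in WT (2.33 to 5.90). Its start also contacted a region 60 to 75 kb away in DKO and 50 to 75 kb away in WT, near the gene model Gm34296. The strongest pixel ran from the end of Arid1a over 160 kb in WT, with 31 contacts at 6.68 times expected (4.54 to 9.48). In DKO the nearest such pixel ran over 150 kb with 18 contacts at 4.0 times expected (2.37 to 6.32). These pixels lay 2 bins apart, so their ratio was not taken. The start of Pigv, an enzyme of membrane anchor synthesis, lay inside the anchor bin at the end of Arid1a, nearer than Arid1a itself.

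Chd4, an ATPase of the NuRD complex on chromosome 6, had 2 DKO pixels of 21 contacts each and 1 WT pixel of 24 contacts. At the pixel common to both lists, over 40 kb, enrichment was 3.88 times in DKO (2.40 to 5.93) and 4.24 times in WT (2.71 to 6.30). The opposite anchor held ends of Ing4, a reader subunit of acetyltransferase complexes, and of Acrbp. The anchor on the Chd4 side held an end of Lpar5, and the start of Chd4 lay 5.98 kb away. Chd3, the paralogous NuRD ATPase on chromosome 11, had 1 DKO pixel over 35 kb, with 24 contacts at 2.77 times expected (1.77 to 4.11). The higher-coordinate end of Chd3 lay inside 1 anchor bin, and the other bin lay outside the gene, within 10 kb of its lower-coordinate end. Ends of Kcnab3, Trappc1 and Cntrob also lay within 10 kb of these anchors, with an end of Kcnab3 inside a bin. Smarcb1, a core BAF subunit, had 2 WT pixels over 50 and 55 kb with 19 and 22 contacts, at 3.48 and 3.52 times expected. They led to Vpreb3 and to Gm5134. Smarcd3, a BAF subunit of heart and muscle development, had 1 WT pixel of 15 contacts (3.58, 2.01 to 5.91) to the homeobox gene Gbx1. Its end lay 7.38 kb from that anchor, and the start of its promoter entry lay inside the anchor bin, within the body of the gene. The nearest WT pixel lay 60 kb from the Chd3 pixel, although a WT anchor lay 10.5 kb from an end of Chd3, and the nearest DKO pixels lay 155 kb from those of Smarcb1 and 260 kb from that of Smarcd3. Arid1b, Smarca4, Smarca2, Smarcc1, Chd7 and Chd8 had no pixel in either list.

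Of the 10 methyltransferase genes, 6 had a pixel, and every one of them had 1 or 2 pixels in all. Ehmt2, which methylates histone H3 at a repressive lysine and sits among immune genes on chromosome 17, was the member of this class named by both lists, but at different pixels. The DKO pixel spanned 40 kb at its start, with 19 contacts at 3.49 times expected (2.10 to 5.45). The WT pixel spanned 60 kb at its end, with 20 contacts at 4.08 times (2.50 to 6.31). Both led to the same opposite bin at Nelfe, a pausing factor of RNA polymerase, and Skiv2l, a helicase of RNA decay, and they lay 4 bins apart at the other anchor. Setd1a and Setd2 had 1 DKO pixel each, with 15 contacts (3.65, 2.04 to 6.01) and 19 contacts (2.73, 1.64 to 4.26). Setd1a is the catalytic subunit of a complex that methylates histone H3 at active promoters, and Setd2 marks the bodies of transcribed genes. Both DKO pixels stood at the lowest count that the DKO list holds for their class of expected count. This held for 5 of 41 DKO and 1 of 35 WT pairs of a member and a pixel. The others were the DKO pixels of Arid1a over 80 kb, Kdm2a with 15 contacts and Ep300 over 115 kb, and the WT pixel of Smarcd3. Setd1b, the paralog of Setd1a, had 2 WT pixels over 65 and 70 kb, of which the higher had 28 contacts at 4.40 times expected (2.92 to 6.36). Nsd1 (16 contacts, 4.09 times, 2.34 to 6.64) and Dot1l (18 contacts, 4.36 times, 2.59 to 6.89) had 1 WT pixel each. Dot1l methylates the core of histone H3, and its pixel ran over 135 kb toward Tmprss9. The nearest pixel of the other list was 130 kb away for Nsd1 and 965 kb away for Setd1a. Kmt2a, Kmt2c, Kmt2d and Ehmt1 had no pixel.

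The 6 demethylase genes included a pair with several pixels in both lists, Kdm2a and Kdm6b. Kdm2a, which binds unmethylated CG-rich DNA and demethylates histone H3, lies on chromosome 19 and had 5 DKO and 3 WT pixels over 40 to 55 kb. Their counts were 15, 20, 22, 24 and 26 contacts in DKO, and 23, 25 and 27 contacts in WT. All 3 WT pixels were also in the DKO list, with enrichments of 2.87, 3.60 and 3.69 times in DKO against 2.89, 4.03 and 4.05 times in WT. Intervals at the pixel with the highest count were 1.87 to 4.20 in DKO (40 kb, 26 contacts) and 2.65 to 5.86 in WT (50 kb, 27 contacts). The pixels joined the lower-coordinate end of Kdm2a, which shares that anchor with an end of Grk2, to Ssh3, a phosphatase of the actin regulator cofilin. Kdm6b, which removes a Polycomb mark from histone H3, had 4 DKO pixels of 17 to 23 contacts and 3 WT pixels of 19 to 23 contacts. These pixels spanned 115 to 175 kb in both lists. At the pixel over 120 kb both libraries had 23 contacts, at 6.29 times expected in DKO (3.99 to 9.43) and 6.12 times in WT (3.88 to 9.18). At the neighbouring pixel over 115 kb there were 17 contacts in DKO (5.38, 3.13 to 8.62) and 23 in WT (7.30, 4.63 to 11). The WT value was the highest enrichment of any member pixel. The ends of Kdm6b lay 8.51 and 9.63 kb from these anchors, however, and at every one of its pixels an end of Cyb5d1, Naa38, Tmem88 or Dnah2 was nearer. The opposite anchors held no protein-coding gene end within 10 kb. Kdm5b had 1 DKO pixel of 17 contacts (3.58, 2.09 to 5.73) over 55 kb toward Rabif and Klhl12. Kdm1a, Kdm2b and Kdm4a had none.

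Genes of acetylation, the class with the most members, held 19 pixels in DKO and 13 in WT at 6 of 12 members, 12 of the 32 at Kat2a. Per member this made 1.58 pixels in DKO and 1.08 in WT, against 1.67 in DKO and 1 in WT at demethylase genes. Kat2a, the acetyltransferase of the SAGA coactivator complex, lies on chromosome 11 (100704746 to 100712485) and had 8 DKO pixels of 16 to 24 contacts and 4 WT pixels of 17 to 20 contacts. Summed over both lists this made 12 pixels, and 0.859% of all protein-coding genes had as many or more. Of the DKO pixels 7 formed 1 loop with the region of Cnp, a myelin enzyme, and Ttc25, a cilium protein, over 125 to 140 kb. The 4 WT pixels led to the same region over 120 to 135 kb. At the pixels common to both lists, DKO had 19, 21 and 24 contacts where WT had 19, 19 and 17. Enrichment at the last of these was 6.05 times in DKO (3.87 to 9.0) and 4.22 times in WT (2.46 to 6.76), a ratio of 1.43 (0.738 to 2.84). The remaining DKO pixel joined Kat2a over 80 kb to the start of the chaperone gene Dnajc7, with 21 contacts (3.82, 2.36 to 5.84). The nearest WT pixel to it was 10 bins away. The Kat2a anchors also held ends of Dhx58 and Zfp385c.

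Ep300, a broadly acting acetyltransferase and coactivator on chromosome 15 (81586209 to 81652077), had 4 pixels in each list over 115 to 140 kb in DKO and 115 to 135 kb in WT. Their counts were 17, 18, 18 and 19 contacts in DKO and 15, 18, 21 and 22 in WT. No other protein-coding gene end lay within 10 kb of the anchor at the Ep300 start. The opposite anchor lay at the start of Rbx1, the RING subunit of cullin ubiquitin ligases, and the end of Xpnpep3. The highest DKO count, 19 contacts over 125 kb, stood at 3.56 times expected (2.14 to 5.55). At the pixel with the starts of Ep300 and Rbx1 inside its bins, 18 contacts stood at 3.71 times expected in DKO (2.20 to 5.86) and 22 at 4.13 times in WT (2.59 to 6.25). Hdac7, a class IIa deacetylase on chromosome 15, had 4 pixels in each list. Its end contacted the region of Endou and Rpap3 over 60 to 75 kb in DKO and 65 to 80 kb in WT. Ends of Slc48a1 lay within 10 kb of the same anchor at each of these pixels, nearer than Hdac7 at 2 in DKO and 2 in WT. At 75 kb there were 31 contacts in DKO (5.43, 3.69 to 7.71) and 26 in WT (3.93, 2.57 to 5.76), but at 65 kb there were 20 in DKO (3.42, 2.09 to 5.28) and 29 in WT (4.61, 3.09 to 6.62). The direction thus differed between pixels 2 bins apart. The DKO list also held a pixel of 17 contacts from the start of Hdac7 over 135 kb, at an anchor bin with an end of Vdr, the vitamin D receptor.

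Kat6a, an acetyltransferase of stem cell and developmental genes, had 2 DKO pixels of 20 and 26 contacts over 55 and 50 kb to Ap3m2, at 3.77 times (2.30 to 5.83) and 4.60 times expected (3.00 to 6.74). No other gene end lay at its anchor, and the nearest WT pixel was 375 kb away. Sin3a, the scaffold of a deacetylase complex, had the longest member pixel, a DKO pixel over 240 kb toward Cspg4 with 15 contacts (5.69, 3.19 to 9.39). Ncor1, a corepressor that recruits deacetylases, had 1 WT pixel of 13 contacts (4.52, 2.41 to 7.73) over 95 kb. That pixel had both ends of the polyubiquitin gene Ubb inside its opposite bin and the starts of Ncor1 and Pigl inside the near one. Brd2, Crebbp, Hdac1, Hdac2, Hdac3 and Hdac4 had no pixel.

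Of the 7 Polycomb genes, Cbx8 and Cbx2 had pixels, and they shared the WT pixel. Cbx2 and Cbx8 encode chromodomain subunits of Polycomb repressive complex 1 and lie side by side on chromosome 11. The WT list had 1 pixel over 45 kb, with the start of Cbx8 inside its anchor bin and 26 contacts at 4.53 times expected (2.96 to 6.64). The DKO list had 2 pixels to the same opposite bin over 40 and 35 kb, with 28 contacts at 4.12 times (2.73 to 5.95) and 30 at 3.45 times (2.33 to 4.92). These were 1 and 2 bins from the WT pixel. Cbx2 counted in the WT list alone because its end lay 8.73 kb from the WT anchor and outside 10 kb of the DKO anchors. Ezh2, Eed, Suz12, Bmi1 and Ring1, which encode the core of both Polycomb complexes, had no pixel in either list.

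**Figure D2:**
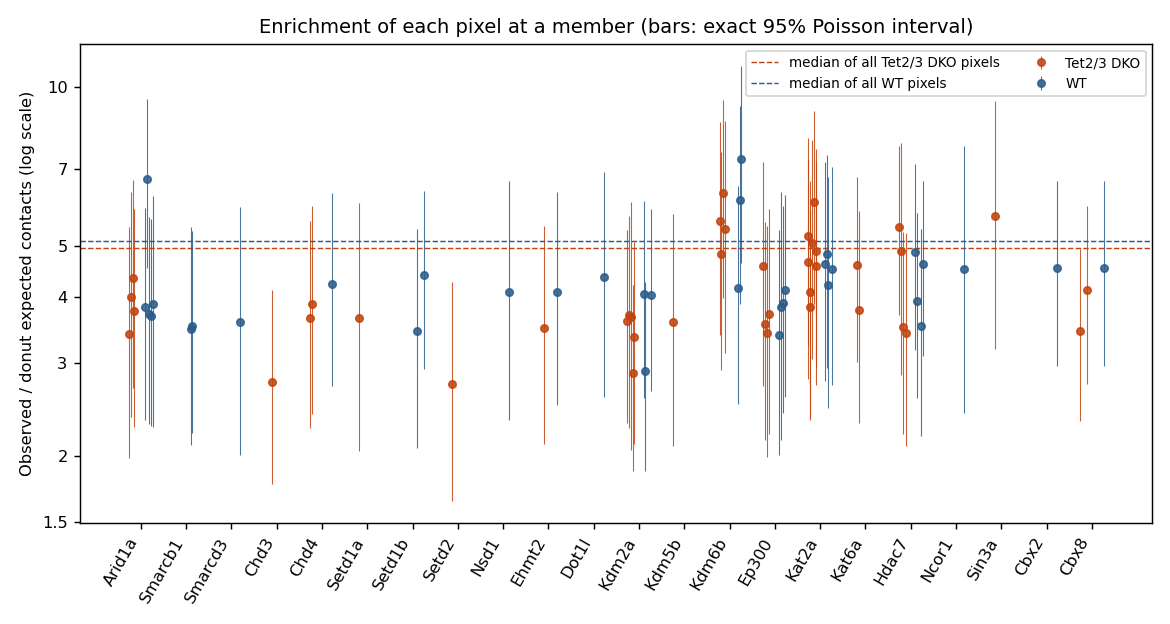
Observed over donut expected contacts (vertical, log scale) of each pixel at a member, with DKO left of WT for each gene, exact 95% Poisson intervals as bars and dashed lines at the medians of all pixels of each list (4.95 in DKO and 5.11 in WT). Most member pixels lie under these medians, and the highest are Kdm6b and Arid1a pixels of the WT list and a Kdm6b pixel of the DKO list.

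**Figure D3:**
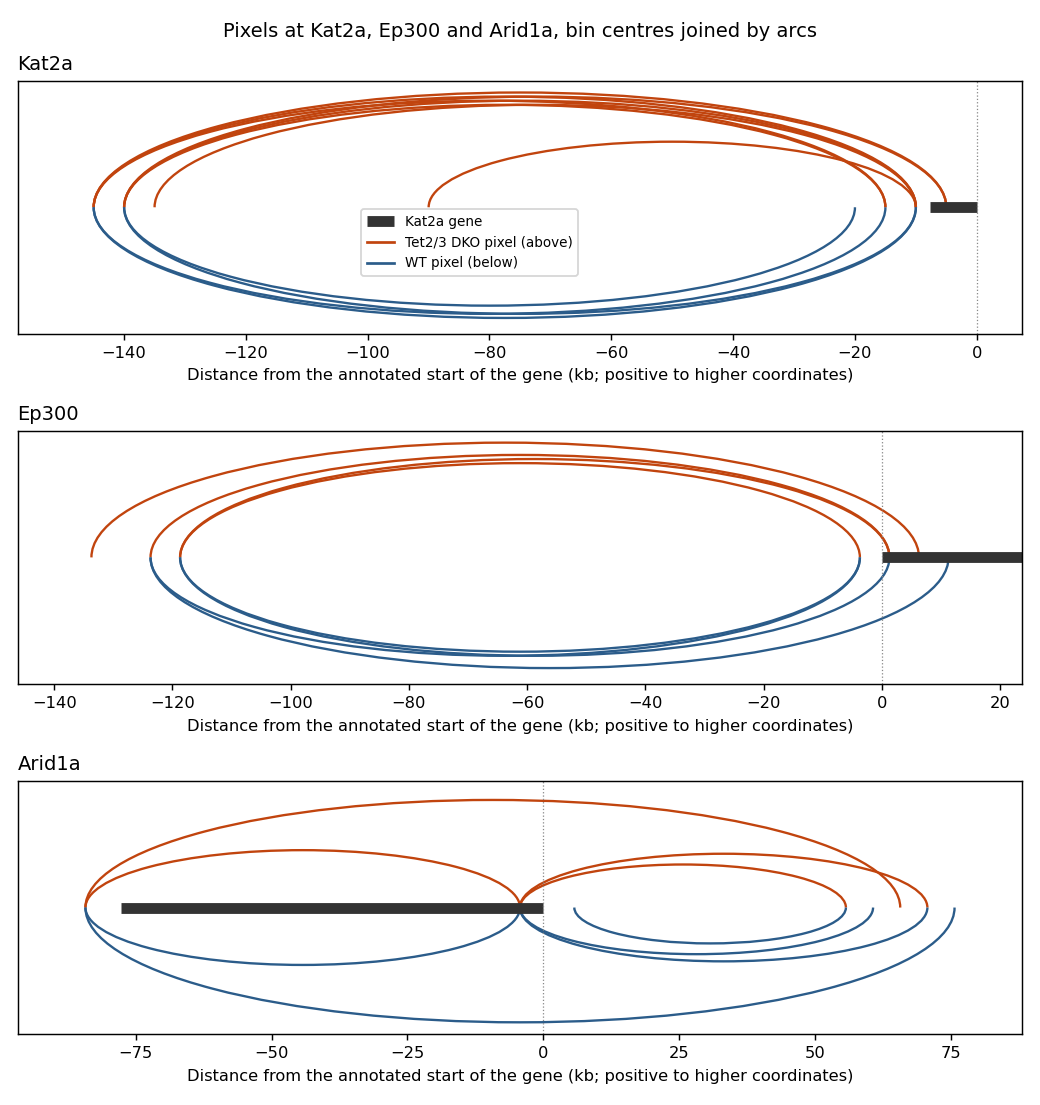
Pixels at Kat2a, Ep300 and Arid1a as arcs between bin centres, DKO above and WT below the line, against the distance from the annotated start of each gene in kb (positive to higher coordinates; the black bar is the gene, cut off at the panel edge for Ep300). At all 3 genes both lists have arcs to the same regions, and the Kat2a arc of 80 kb is in the DKO list alone.

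Of the 13 members named by 1 list, 10 rested on a single pixel, 5 of the 6 in DKO and 5 of the 7 in WT. At a false discovery rate (FDR) under 0.01 in all 4 neighbourhoods, Kat6a was left in the DKO list alone. The WT list alone then had 5 members, Smarcb1, Chd4, Setd1b, Ehmt2 and Cbx2, of which Chd4 and Ehmt2 had pixels in both full lists. The 7 members left in both lists at that threshold were Arid1a, Kdm2a, Kdm6b, Ep300, Kat2a, Hdac7 and Cbx8. In DKO 17.4% of members and 9.51% of all genes then had a pixel, and in WT 26.1% of members and 10.8% of all genes.

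Contacts common to both libraries gave the direct comparison of strength. There were 16 pixels listed in both at Arid1a, Chd4, Kdm2a, Kdm6b, Ep300, Kat2a and Hdac7. They held 336 contacts in DKO on 80.6 expected, and 358 in WT on 85.1 expected. The median log2 ratio of enrichment, DKO over WT, was −0.07 at these pixels (order-statistic interval −0.17 to 0.18), and −0.02 at all 1940 pixels in both lists. The ratio was above 1 at 7 pixels and below 1 at 9, from 0.737 at Kdm6b to 1.43 at Kat2a. The 3 Kat2a pixels lay above 1 and both Ep300 pixels and all 3 Kdm2a pixels below 1. No member pixel had a single-pixel interval that left out 1. Over all pixels in both lists, 0.567% had an interval above 1 and 1.03% one below 1. Neighbouring pixels of a gene share reads of the same loop and are not independent.

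**Figure D4:**
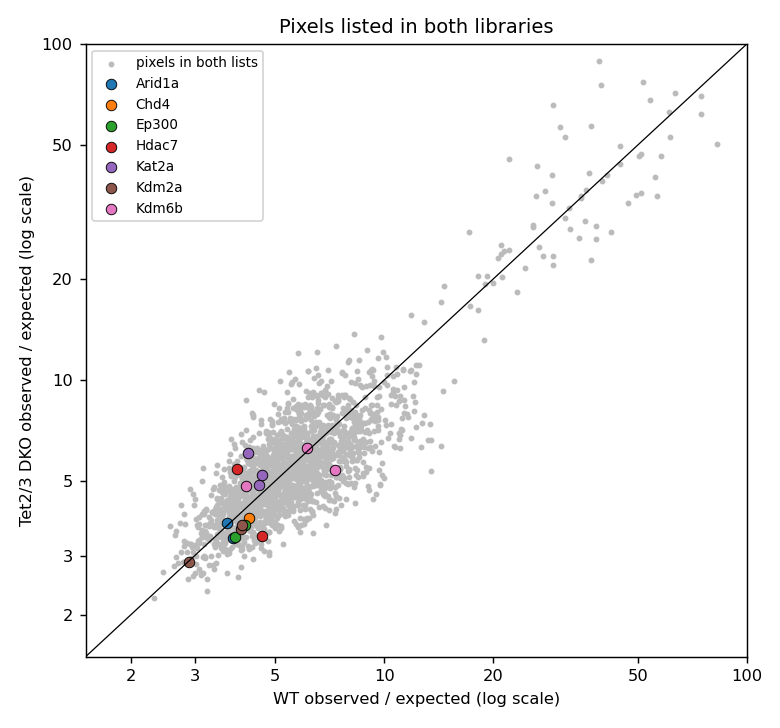
Enrichment in DKO (vertical) against WT (horizontal), both on log scales, of pixels listed in both libraries, with the 16 pixels at members coloured by gene and the diagonal marking equal enrichment. Member pixels lie on both sides of the diagonal within the cloud of the other pixels, and 6 pixels fall outside the axes.

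Member pixels had shorter median spans and lower median enrichment than all pixels. The median span of the 41 DKO member pixels was 80 kb, and of the 34 WT member pixels 75 kb, against 100 kb in DKO and 115 kb in WT for all pixels. The member intervals were 55 to 125 kb in DKO and 65 to 120 kb in WT, so that they include the medians of all pixels. These intervals take pixels as independent, although the member pixels came from 20 loops in DKO and 18 in WT. At pixels of any protein-coding gene end the median span was 95 kb in DKO and 107.5 kb in WT. Spans over 200 kb were found at 1 of 41 DKO member pixels, where 19.9% of all DKO pixels were as long, and at 0 of 34 WT member pixels, where 23.8% of all WT pixels were. Median enrichment was 3.82 times in DKO (3.65 to 4.59) and 4.09 times in WT (3.83 to 4.40) at members, and 4.95 in DKO and 5.11 in WT over all pixels. It was 4.82 in DKO and 5.00 in WT at pixels of any protein-coding gene end. The median expected count was 4.99 in DKO and 5.32 in WT at member pixels, and 3.72 in DKO and 3.63 in WT over all pixels. The part of span and expected count in the lower enrichment was not tested. By class, median spans in DKO and WT were 60 and 65 kb at remodellers, 40 and 70 kb at methyltransferases, 55 and 85 kb at demethylases, 125 and 120 kb at acetylation genes and 37.5 and 45 kb at Polycomb genes (2 DKO pixels and 1 WT pixel).

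**Figure D5:**
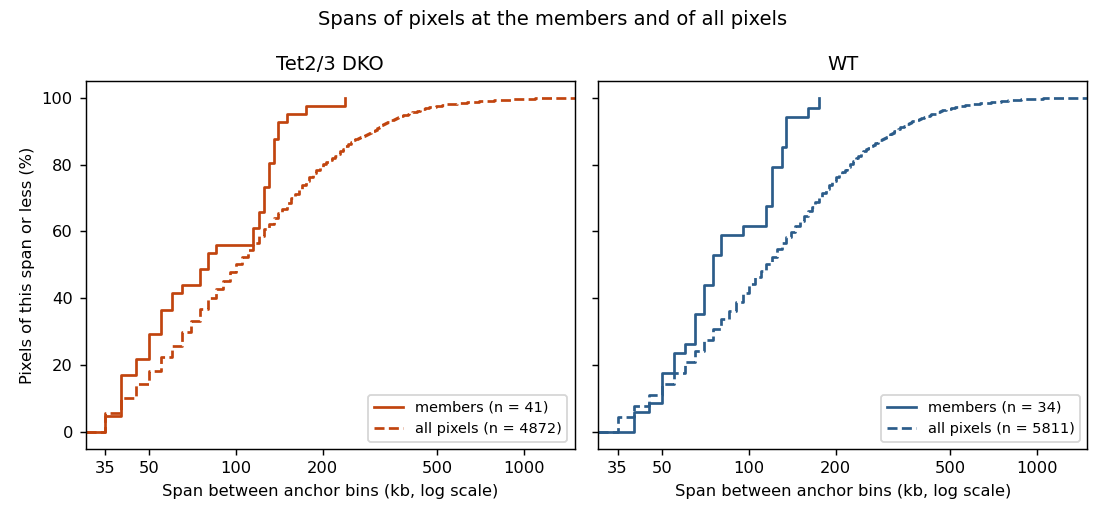
Cumulative share of pixels (vertical, percent) by span between anchor bins (horizontal, kb, log scale) for member pixels (solid) and all pixels (dashed), DKO on the left and WT on the right. The member curves end at 240 kb in DKO and 175 kb in WT, while all pixels extend beyond the right edge of each panel.

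Joined within 20 kb, the member pixels formed 20 loops in DKO and 18 in WT, and 11 of each had a pixel of the other list within 2 bins (55% of the DKO loops, 61.1% of the WT loops). Over all loops these shares were 55.0% in DKO and 50.1% in WT, both within the intervals of the member shares (31.5 to 76.9% in DKO and 35.7 to 82.7% in WT). For loops at any protein-coding gene end they were 57.3% in DKO and 52.6% in WT, also within these intervals. Where the strand was known (36 members), the anchor lay at the start of 9 members (25%) and the end of 6 (16.7%) in DKO, and at the start of 7 and the end of 7 in WT (19.4% each). Over all 17491 genes of known strand, 13.7% had an anchor at the start and 12.9% at the end in DKO, and 14.1% at the start and 13.8% at the end in WT.

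Partners of the members were mostly other genes. Of the 22 members with a pixel, 19 had another protein-coding gene end within 10 kb of the opposite anchor, 39 partner genes in all, and Chd3, Nsd1 and Kdm6b had none. For Chd3 both anchors were counted as its own, which left no opposite anchor to search. Both anchors lay at gene ends for 37 of 41 DKO member pixels (90.2%) and 28 of 34 WT member pixels (82.4%). Among all pixels with a gene end at an anchor these shares were 47.5% in DKO and 45.7% in WT. Annotated transcription starts lay within 10 kb of both anchors at 43.9% of DKO and 44.1% of WT member pixels, against 21.3% in DKO and 18.6% in WT for all pixels at gene ends. A pixel with gene ends at both anchors can be picked for a member through either anchor, so these shares do not compare like with like. The member pixels also came from only 20 loops in DKO and 18 in WT. The part of gene density in these shares was not tested. Anchors were seldom a member's own: another gene end lay at the same anchor for 31 of 41 DKO and 28 of 35 WT pairs of a member and a pixel, and nearer than the member for 19 in DKO and 17 in WT. A pixel at such an anchor cannot be assigned to 1 gene at a resolution of 5 kb.

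The gene ends of Smarca4, Kdm1a and Arid1b lay just outside the window, 11.1, 12.2 and 12.7 kb from the nearest anchor of either list. Just inside it lay Nsd1, Kdm6b and Cbx2, at 8.33, 8.51 and 8.73 kb.

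A list of 104 other chromatin genes, drawn up from the same complexes, had pixels at 26 genes in DKO and 26 in WT (25% each), and at 13 in both lists (12.5%). Over all protein-coding genes these shares were 20.1% in DKO, 21.2% in WT and 12.9% in both lists. Of the other chromatin genes 13 were in the DKO list alone (12.5%, all genes 7.14%) and 13 in the WT list alone (12.5%, all genes 8.23%). At least 1 list held pixels at 37.5% of them and at 28.3% of all genes. At least 1 list named 11 of 25 other remodeller genes, 7 of 19 methyltransferase genes, 3 of 12 demethylase genes, 11 of 23 acetylation genes and 7 of 25 Polycomb genes. The genes with the most pixels were Hdac11, a deacetylase (3 in DKO and 6 in WT, at 4.57 to 5.31 times expected in DKO and 4.85 to 7.22 in WT), and Chd2, a remodeller (3 in DKO and 4 in WT, at 3.18 to 8.83 times in DKO and 4.41 to 9.98 in WT). Phf2, a demethylase, had 2 in DKO and 4 in WT. Ezh1 and Rbbp4 had 2 in each list, Wdr5 had 1 in DKO and 3 in WT, and Smarcc2, Brd3 and Pcgf2 each had 1 in DKO and 2 in WT. Brd7 had 3 pixels, all in WT.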

How the data were processed

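Hi-C of sorted hair matrix keratinocytes was given as 1 list of enriched pixels per genotype, at 5 kb. They were produced with juicer_tools 1.22.01, as the file headers say, on GRCm38 (mm10), which the submitters' processing notes name. Neither the aligner nor the read filters are known, and so the sequencing depth is unknown. Each pixel comes with its raw observed count, as deposited by the authors. Its expected contacts in 4 neighbourhoods are deposited as signal values in contacts. The deposited files add a class number for each expected value (a score) and a q-value per neighbourhood, the highest under 0.1.

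Gene ends came from RefSeq (GRCm38.p6), and strands and promoters from its promoter table. Intervals were exact at 95% (Poisson for enrichment, Clopper-Pearson for shares, conditional binomial for the DKO/WT ratio) and cover counting error only. Intervals of medians came from order statistics at 95% and reflect the spread between pixels. They take pixels as independent, which pixels of the same loop are not. Read pairs without molecular identifiers are not independent molecules. Pixels were joined into loops by single linkage within 20 kb at both anchors. Pixels were matched between lists as the same pair of bins, and loops by a pixel of the other list within 2 bins. Python 3.11.15, pandas 2.3.3, scipy 1.17.1 and matplotlib 3.10.9 were used, and the steps were tested on simulated data. Every member was accounted for, values were given for the strongest pixels of members in both lists and then of the others, and other chromatin genes were named from 3 pixels in both lists together. One gene that this rule names is not reported here. The members and lists were chosen with earlier results of these data known. The alternatives tried were other windows around gene ends, stricter lists and other expected counts.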

Additional observations from a re-analysis of the deposited data

How the results depend on the processing

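No paired analysis was possible because there was a single library of either genotype, so that no replicate could be left out. Of 103 recomputed values 67 stayed within 1.5 times a count or within the interval of a median. The median log2 ratio, DKO over WT, had an interval that included 0 and changed sign, to 0.02 with the bottom-left and 0.05 with the vertical expected count and to 0.03 with gene ends within 5 kb. With gene ends within 5 kb of an anchor bin, WT had 9 members, 20 pixels and 11 loops, and 2 members were in WT alone. With gene ends inside the bin, DKO had 5 members, 9 pixels, 6 loops and a median enrichment of 4.60, and WT had 7 members, 10 pixels and 7 loops. Then 3 members were in both lists, 2 in DKO alone and 4 in WT alone, and that ratio was 0.32. Within 20 kb, 15 members were in both. At an FDR under 0.01, DKO had 8 members, 11 pixels, 8 loops, a median enrichment of 4.60 and 1 member alone, and WT had 16 pixels. At 20 or more contacts, DKO had 9 members, 20 pixels, 10 loops and 2 members alone, and WT had 21 pixels. Without weak loops of 1 pixel, DKO had 9 members, 10 loops and 1 member alone, and WT had 4 alone. Within 20 kb, 47.8% of members and 26.1% of all genes had a pixel in DKO, and 50% and 28.1% in WT. At 20 or more contacts these shares were 19.6% and 9.48% in DKO, and 26.1% and 10.6% in WT. Without weak loops they were 19.6% and 12.1% in DKO, and 26.1% and 13.8% in WT. Median enrichment was 3.38 in DKO and 3.70 in WT with the horizontal expected count, 3.80 in WT with the vertical one, and 3.29 in DKO and 3.42 in WT with the largest of 4. The counts of 13 to 31 contacts per pixel limit the precision of each ratio.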

Other observations

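Of the 24 members at no pixel, 10 had an anchor inside the gene body, away from both gene ends (41.7%). Of all 15690 genes at no pixel, 4.20% did. Arid1b, the paralog of Arid1a in the BAF complex, had 4 such pixels, 3 in DKO and 1 in WT. Smarca4, Smarca2, Smarcc1, Chd7, Kmt2a, Kmt2c, Kdm2b, Kdm4a and Ezh2 had 1 each. The median gene length was 37.5 kb over the 22 members at a pixel and 62.4 kb over the 24 at none, while over all genes it was 20.4 kb at a pixel and 15.8 kb at none. To count, a bin of 5 kb had to lie inside the gene and over 10 kb from both ends. A gene of 15.8 kb could not meet this, so the shares of 41.7% and 4.20% do not compare like with like. The part of gene length in the share with an anchor in the gene body was not tested. Hdac2 was the member farthest from any anchor, at 2163 kb.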
